A study of Homo sapiens with 8 samples.

Results

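The genes described here are 42 transcriptional targets and components of the integrated stress response and the unfolded protein response, 42 of the 59385 genes in the count table. They were listed by name for their link to the transcription factors ATF4, ATF6 and XBP1, by a rule that uses no measured value but with earlier results of these data known, and all 42 were abundant enough to be among the 16228 genes tested. The cells were IHCF, an immortalized line of human cardiac fibroblasts, infected with a lentivirus that carried a hairpin RNA, one that targets EIF4G2 or a scramble control. EIF4G2, also called DAP5, is a translation initiation factor related to eIF4G that lacks its cap-binding partner site. Every group was serum-starved (6 h or more) and received TGF-beta (24 h), a cytokine that activates fibroblasts, and no untreated group was analysed here. Poly(A)-selected RNA was sequenced from total RNA and from polysome-associated RNA, which gives 4 groups of 2 libraries, the total and the polysomal RNA of scramble and of knockdown cells. The labels call the 2 libraries of a group biological replicates. No second hairpin or rescue is named in the labels, so that effects of EIF4G2 loss and of this hairpin as such cannot be told apart.

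Cells read endoplasmic reticulum (ER) and nutrient stress through a few sensors. Kinases such as PERK (gene EIF2AK3) phosphorylate the initiation factor eIF2, which lowers most protein synthesis while the mRNA of ATF4 is translated better. ATF4 then activates genes of amino acid synthesis, one-carbon metabolism and stress control, together with its partners of the C/EBP family. In the other arms, IRE1 (gene ERN1) splices the mRNA of XBP1 and ATF6 is cleaved in the Golgi, and both factors activate chaperones, protein disulfide isomerases and the machinery of ER-associated degradation. In fibroblasts that secrete collagen these arms set the capacity of the secretory pathway.

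The promoters of these genes are known for short shared elements, and the sequences are shown because these elements are how the factors of each arm are known to find their targets. RefSeq promoter windows (build GRCh38.p14), limited to the 250 bases before each annotated start, were found for 36 of the 42 genes. PSPH, SHMT2, ALDH1L2, GPT2, NUPR1 and PDIA3 have no entry. The ER stress element (ERSE; CCAAT and CCACG 9 bases apart, either strand) matched in 7 of the 36 genes (19.4%), against 0.0916% of the 27305 genes with a window. Its shorter form ERSE-II (ATTGG and CCACG 1 base apart) matched in 3 of 36 (8.33%, against 0.0659%). The unfolded protein response element (UPRE; TGACGTGG) matched in 1 of 36 (2.78%, against 0.78%). The C/EBP-ATF response element (CARE; TGATG, any base, then AA) matched in 5 of 36 (13.9%, against 3.89%). A match describes these letters in these windows and says nothing on binding in the cells.

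**Figure D1:**
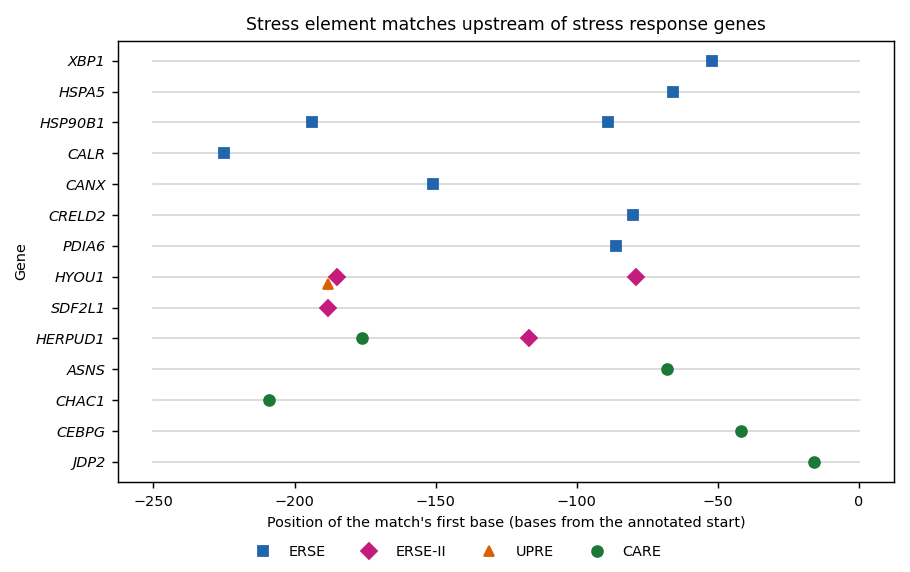
Matches to stress elements in the 250 bases before RefSeq starts of the 14 genes that hold one (y axis), with the distance of each match's first base from the start in bases on the x axis. HYOU1 and HERPUD1 are the genes with matches to more than 1 element, and HSP90B1 holds 2 ERSE matches.

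The promoters of HSPA5 and HYOU1 are shown whole, with matched bases in capitals. HSPA5 encodes BiP, the main ER chaperone, and its window lies on the minus strand at chr9:125241344-125241593 with 1 ERSE match. HYOU1 encodes a large ER chaperone and nucleotide exchange factor, and its window lies on the minus strand at chr11:119057206-119057455. The HYOU1 window holds 2 ERSE-II matches, both on the strand opposite to the gene, and a UPRE match that overlaps the distal one.
HSPA5: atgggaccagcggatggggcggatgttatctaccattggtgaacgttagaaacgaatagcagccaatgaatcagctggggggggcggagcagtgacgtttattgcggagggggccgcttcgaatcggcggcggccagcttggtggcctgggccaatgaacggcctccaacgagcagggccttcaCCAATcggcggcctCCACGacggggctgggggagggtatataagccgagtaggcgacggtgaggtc
HYOU1: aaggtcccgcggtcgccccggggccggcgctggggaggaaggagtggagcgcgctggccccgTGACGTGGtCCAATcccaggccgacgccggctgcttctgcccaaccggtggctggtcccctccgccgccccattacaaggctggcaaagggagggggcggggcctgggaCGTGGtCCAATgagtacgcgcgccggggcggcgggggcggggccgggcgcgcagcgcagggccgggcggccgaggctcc

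The ERSE matches are printed with 5 bases on either side, on the strand on which the element reads forward, with its 2 parts in capitals and the spacer in lower case. All of these genes encode ER folding proteins except XBP1, the transcription factor.
HSPA5 ERSE site: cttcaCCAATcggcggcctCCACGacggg
XBP1 ERSE site: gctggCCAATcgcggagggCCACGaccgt
CALR ERSE site: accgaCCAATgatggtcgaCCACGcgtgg
CANX ERSE site: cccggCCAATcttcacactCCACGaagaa
CRELD2 ERSE site: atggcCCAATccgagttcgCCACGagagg
PDIA6 ERSE site: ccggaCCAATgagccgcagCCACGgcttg
HSP90B1 ERSE site, distal: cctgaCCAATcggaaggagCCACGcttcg
HSP90B1 ERSE site, proximal: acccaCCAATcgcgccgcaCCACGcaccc
The ERSE-II matches outside HYOU1 belong to SDF2L1, which works with BiP, and HERPUD1, a scaffold of ER-associated degradation.
SDF2L1 ERSE-II site: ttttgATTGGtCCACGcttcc
HERPUD1 ERSE-II site: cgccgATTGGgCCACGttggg
The CARE matches are printed in the same way and belong to 4 genes of the ATF4 arm and to HERPUD1. The CHAC1 match lies at chr15:40953262-40953269, inside an exon of a longer GENCODE transcript, and the JDP2 match lies in an intron at chr14:75428006-75428013, since both genes have several starts. Of the other printed sites, those of ASNS, CANX and HSP90B1 also lie in an exon of a GENCODE transcript. Those of CEBPG, CRELD2 and PDIA6 lie in introns.
ASNS CARE site: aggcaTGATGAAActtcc
CHAC1 CARE site: aggagTGATGCAAcggca
CEBPG CARE site: gcgtcTGATGCAAcctgc
JDP2 CARE site: ggggcTGATGCAAcccgt
HERPUD1 CARE site: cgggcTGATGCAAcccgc
In 4 of these 5 sites, all but that of ASNS, the run is TGATGCAA.

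The libraries held 18043714 to 24590030 counts in genes. The 42 genes took 0.838% to 0.872% of the counts in total RNA and 0.473% to 0.561% in polysomal RNA. EIF4G2 itself checked the labels: it stood at 794 and 785 CPM, the read count scaled to a common library size with TMM factors, in scramble total libraries and at 293 and 327 CPM in knockdown total libraries. In polysomal RNA it stood at 875 and 877 CPM with scramble and at 244 and 335 CPM with the knockdown. Its log2 difference was -1.35 ± 0.18 (SE, n = 2 against 2) in total RNA, with an adjusted p of 0.0504 in edgeR's quasi-likelihood test and 4.05e-10 in DESeq2, and -1.60 ± 0.18 in polysomal RNA (edgeR adjusted p = 0.0276). Of 15 fibroblast and myofibroblast markers 13 were tested and summed to 5610 to 8554 CPM, with COL1A1 at 3773 to 4171 CPM in total RNA. Much of that sum came from COL1A1, VIM (1093 to 5751 CPM) and TAGLN (129 to 1875 CPM). PDGFRA reached at most 2.16 CPM, TCF21 3.25 CPM and DDR2 4.78 CPM, and FAP and DCN were too low to be tested. Cardiomyocyte markers summed to 0 to 1.15 CPM, leukocyte markers to 0.425 to 1.54 CPM, endothelial markers to 7.56 to 15.1 CPM and mural markers to 16.2 to 43.5 CPM. The epithelial list summed to 1165 to 3200 CPM, nearly all from the keratins KRT8 and KRT18, with CDH1 at 0 to 0.165 CPM. The part of other cells in the results was not tested. In bulk RNA, fewer cells that express a gene and less of its RNA per cell cannot be told apart.

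Levels differed widely between roles. Per kilobase of transcript, in scramble total RNA, the ER lectin chaperone CALR was highest at 577 CPM per kb, followed by HSP90B1 at 286 and HSPA5 at 199. The highest disulfide isomerase was PDIA3 at 114 CPM per kb. Among the amino acid and one-carbon enzymes SHMT2, of mitochondrial folate metabolism, was highest at 59.4, followed by PHGDH at 47.2 CPM per kb. XBP1 led the sensors at 49.8, DDIT4 the stress effectors at 45.5, HERPUD1 the degradation genes at 16.1 and CEBPB the bZIP factors at 16.0 CPM per kb. The lowest was ASNS, asparagine synthetase, at 0.188 CPM per kb with 4 to 22 counts in a library. Of its exon bases, 44.6% are shared with a read-through gene on the same strand that is listed at 0 to 3 counts, so that the level of ASNS is uncertain. CBS, which starts transsulfuration, has a near-identical copy (CBSL, 0 to 107 counts against 75 to 674 for CBS), and PDIA3 has a pseudogene with 87 to 521 counts. Reads of these pairs could be split by the counting.

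In total RNA no member passed the test between knockdown and scramble cells. CHAC1, PCK2, CEBPB, PHGDH and JDP2, all of the ATF4 arm, had higher values in both knockdown libraries, and CANX, of the ER arm, had lower ones. None of the 42 genes was called by edgeR's quasi-likelihood test at an adjusted p of 0.05, nor was any of the 16228 genes (0%), EIF4G2 included. DESeq2 also called none of the 42 (0.239% of the genes for which it gave an adjusted p). At an unadjusted p of 0.05, 6 of the 42 were higher (14.3%, against 2.66% of all genes): CHAC1, PCK2, CEBPB, PHGDH, JDP2 and SDF2L1. CANX was the only one lower (2.38%, against 1.02%). In 19 of 42 genes both knockdown libraries lay above both scramble libraries (45.2%, against 24.8% of all genes). In 7 genes both lay below (16.7%, against 23.1%). The 2 scramble total libraries differed less than any other pair. A chi-square measure of replicate difference, scaled by its degrees of freedom, was 2.63 for them and 25.9 for the knockdown total pair. It was 127 for the scramble and 40.0 for the knockdown polysomal pair. In total RNA a small shift can thus part the groups, for these genes and for all genes alike. Leaving out 1 library moved the count of 7 genes at an unadjusted p of 0.05 to 2 without scramble total replicate 1, to 4 without scramble total replicate 2 and to 10 without knockdown total replicate 2. The median log2 difference of the 42 genes was 0.12, against 0.02 over all genes, and 31 of 42 were above 0.

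The members with the smallest p-values were in the ATF4 arm. CHAC1 (chr15:40952962-40956519), an enzyme that breaks down glutathione, stood at 3.34 and 4.71 CPM in scramble and at 7.54 and 7.61 CPM in knockdown total RNA. Its log2 difference was 0.92 ± 0.22 (SE, n = 2 against 2; edgeR adjusted p = 0.775), and the groups did not overlap. PCK2 (chr14:24094053-24110598), mitochondrial phosphoenolpyruvate carboxykinase, stood at 14.8 and 15.2 CPM in scramble and at 23.5 and 20.6 CPM in knockdown libraries. Both knockdown values of PCK2 lay above both scramble values, with a log2 difference of 0.55 ± 0.15 (edgeR adjusted p = 1). PHGDH (chr1:119648411-119744226), which starts serine synthesis, stood at 121 and 123 CPM in scramble and at 181 and 159 CPM in knockdown libraries. Its groups did not overlap either, and the log2 difference was 0.48 ± 0.14 (edgeR adjusted p = 1). The next enzymes of the serine pathway lay the same way without overlap, PSAT1 at 60.5 and 67.1 against 82.8 and 75.4 CPM. PSPH stood at 26.5 and 27.0 against 34.8 and 29.4 CPM.

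Taking the 11 amino acid, one-carbon and transsulfuration enzymes as a group, 7 were higher without overlap (63.6%, against 24.8% of all genes), namely PHGDH, PSAT1, PSPH, SHMT2, MTHFD2, PCK2 and GPT2. SHMT2 stood at 149 and 153 CPM in scramble and at 194 and 177 CPM in knockdown total RNA. In polysomal RNA SHMT2 overlapped, at 376 and 320 against 408 and 363 CPM. The median log2 difference of the group was 0.26, and it was 0.36 in knockdown replicate 1 and 0.22 in replicate 2 against the scramble mean. ASNS, ALDH1L2 (mitochondrial folate oxidation), CTH and CBS overlapped between groups. None of the 11 passed the adjusted threshold.

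All 3 bZIP factors, which pair with ATF4 or compete with it at DNA, lay above scramble in both knockdown libraries, where 24.8% of all genes did so. CEBPB (chr20:50190734-50192689) stood at 30.0 and 32.5 CPM in scramble and at 48.7 and 40.8 CPM in knockdown libraries, a log2 difference of 0.52 ± 0.15 (edgeR adjusted p = 1). JDP2 (chr14:75427716-75474111) stood at 10.7 and 11.1 against 18.5 and 16.0 CPM, a log2 difference of 0.66 ± 0.23 (edgeR adjusted p = 1). In polysomal RNA JDP2 overlapped, at 46.1 and 28.5 against 45.9 and 38.2 CPM. CEBPG stood at 22.1 and 24.3 against 30.6 and 25.1 CPM, and its second knockdown library was only just above scramble. Of the 6 stress effectors, CHAC1, the pseudokinase TRIB3 and the mTORC1 inhibitors DDIT4 and SESN2 were higher without overlap (66.7%, against 24.8% of all genes). DDIT4 stood at 79.5 and 79.5 CPM in scramble and at 99.9 and 86.9 CPM in knockdown libraries. NUPR1, a small stress-induced nuclear protein, and VLDLR, a lipoprotein receptor, overlapped.

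Of the 11 ER chaperones and cochaperones, 3 were higher without overlap (HSPA5, SDF2L1 and CRELD2) and 3 lower (CANX, DNAJC3 and HYOU1). Each share is 27.3%, near the 24.8% and 23.1% of all genes, and their median log2 difference was 0.06. That median was 0.17 in knockdown replicate 1 and -0.03 in replicate 2. HSPA5 stood at 778 and 780 CPM in scramble and at 893 and 783 CPM in knockdown libraries, so that replicate 2 was level with scramble. CANX (chr5:179678628-179730925), the membrane-bound lectin chaperone calnexin, stood at 740 and 740 CPM in scramble and at 505 and 544 CPM in knockdown libraries. Its log2 difference was -0.50 ± 0.17 (edgeR adjusted p = 1), and both knockdown values lay below both scramble values. Its soluble relative CALR stood at 1082 and 1113 CPM in scramble and at 1207 and 1072 CPM in knockdown libraries, with overlap. SDF2L1 stood at 47.8 and 50.0 against 73.2 and 54.4 CPM, without overlap. Whether the 2 arms differ from each other was not tested.

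Of the 4 sensor genes, ERN1 and ATF6 were lower without overlap (50.0%, against 23.1% of all genes), at 7.08 and 7.21 against 4.74 and 5.64 CPM for ERN1. The log2 difference of ERN1 was -0.46 ± 0.27 (edgeR adjusted p = 1). ATF6 stood at 58.2 and 59.1 against 51.1 and 51.6 CPM. XBP1 overlapped, at 87.0 and 91.7 against 96.8 and 83.1 CPM, and so did EIF2AK3. The counts do not separate the spliced and unspliced forms of XBP1. Of the 4 degradation genes, HERPUD1 was higher without overlap (25%, against 24.8% of all genes), at 47.7 and 47.0 against 59.1 and 54.4 CPM. The lectin EDEM1 and the ligase adaptor SEL1L were lower without overlap (50.0%, against 23.1% of all genes), and the ligase SYVN1 overlapped. Of the 3 disulfide isomerases PDIA6 was higher without overlap (33.3%, against 24.8% of all genes), at 214 and 215 against 232 and 223 CPM. PDIA3 overlapped at 412 and 438 against 494 and 392 CPM.

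**Figure D2:**
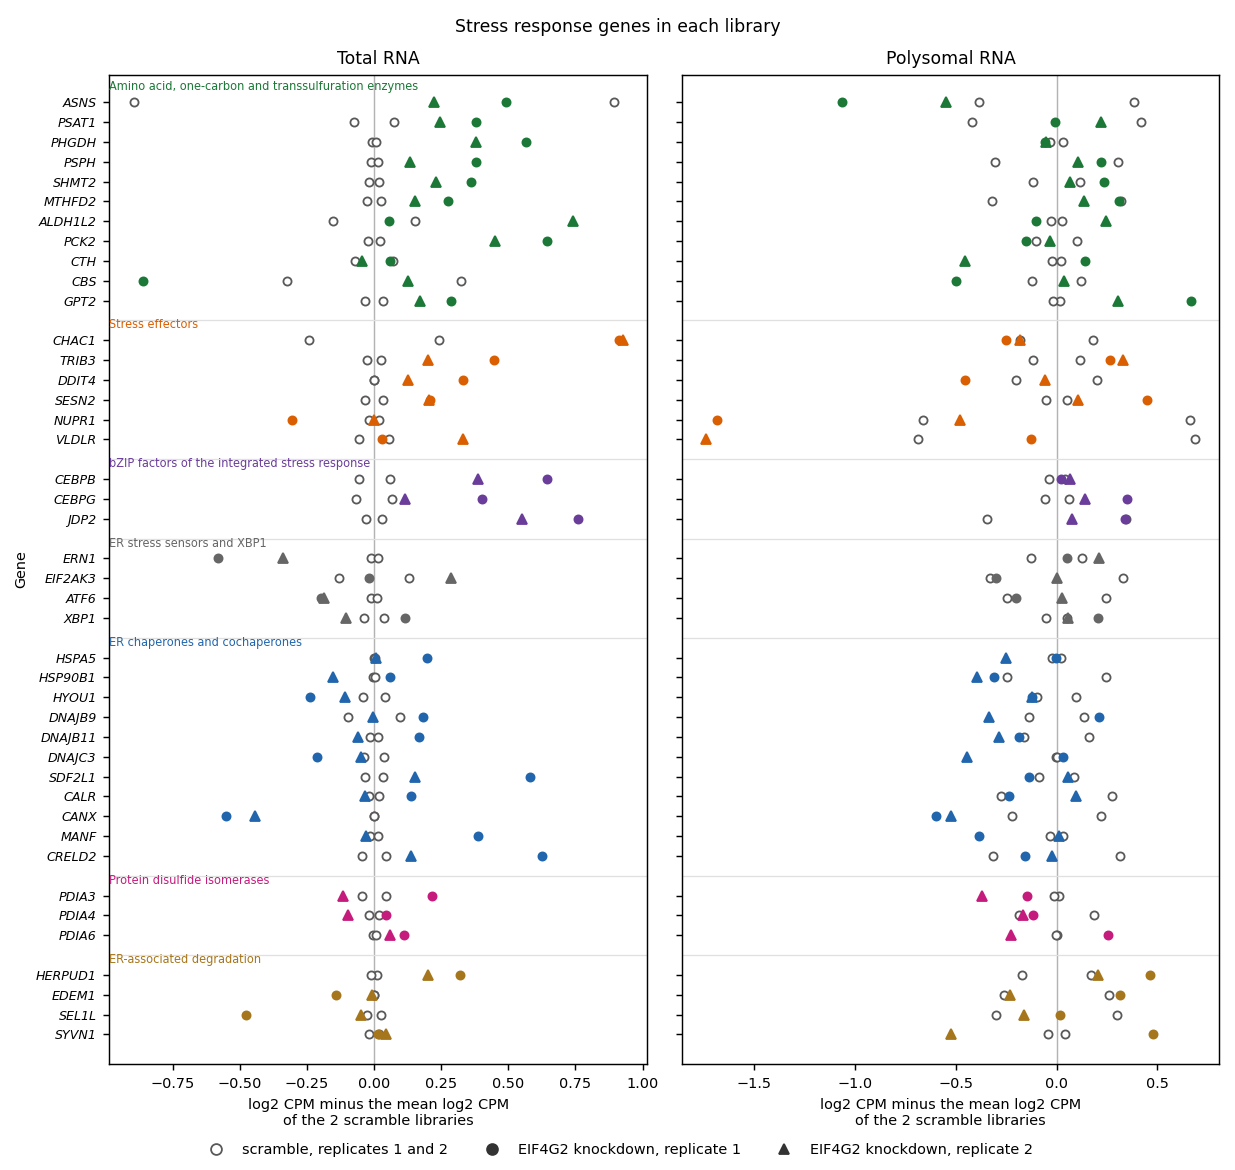
Each of the 42 genes (rows, grouped by role) in each library, as log2 CPM minus the mean log2 CPM of the 2 scramble libraries of the same fraction, in total RNA (left) and polysomal RNA (right). Open circles are scramble libraries, filled circles knockdown replicate 1 and triangles knockdown replicate 2. In total RNA most amino acid enzymes, stress effectors and bZIP factors lie to the right of scramble in both knockdown libraries. This holds for 7 of 11, 4 of 6 and 3 of 3 genes, against 24.8% of all genes, and CANX and ERN1 lie to the left.

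Knockdown total replicate 1 stood apart from the other total libraries. The median transcript length behind its counts was 2709 nt, against 2957 to 3008 nt in the other 3, and ribosomal protein genes took 5.63% of its counts against 4.25% to 4.45%. Across genes, which are not independent and share these libraries, the log2 difference of knockdown against scramble fell with transcript length, with Spearman's rho of -0.38 over 12888 genes and -0.43 over the 42. It rose with the share of G and C bases in the transcript, with rho of 0.29 over the 12888 genes and 0.43 over the 42. No setting removed the trend with G and C bases. Without knockdown total replicate 1 the log2 differences were 0.92 for CHAC1, 0.45 for PCK2, 0.39 for CEBPB, 0.38 for PHGDH and -0.44 for CANX. For SDF2L1, however, the log2 difference was 0.38 with that library and 0.15 without it. With each library's length trend taken out, a setting added once the data had been seen, the log2 differences were 0.79 for CHAC1, 0.50 for PCK2 and 0.44 for PHGDH, and the median of the 42 genes was 0.12 against 0.01 for all genes.

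**Figure D3:**
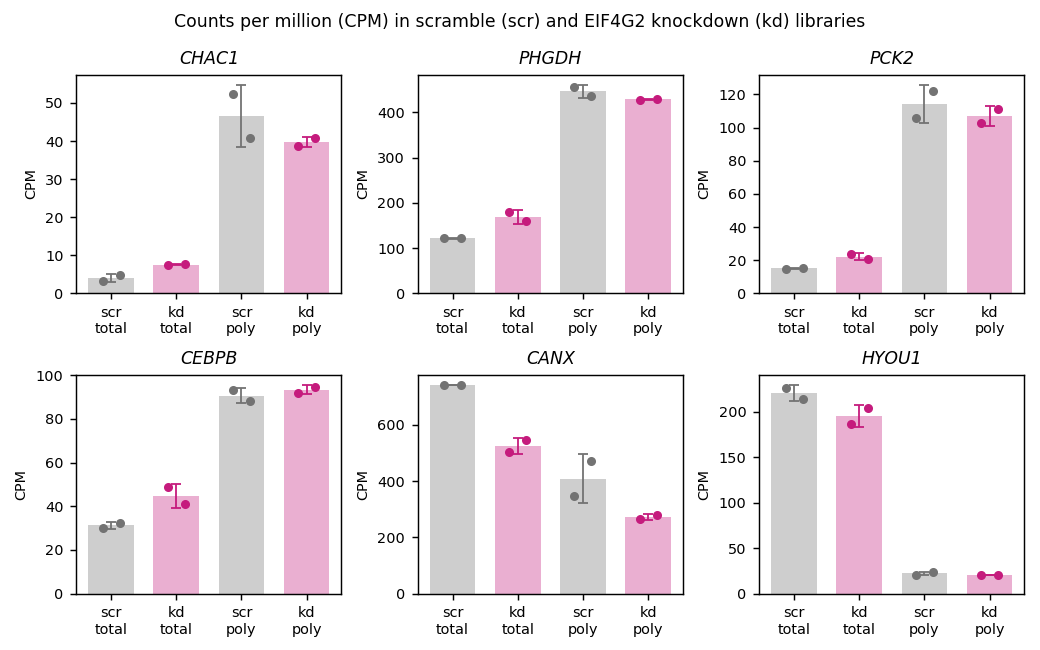
CPM of 6 genes (y axes start at 0) in the 4 groups, with bars for the mean of 2 libraries, points for each library and error bars for the SD. In total RNA both knockdown points of CHAC1, PHGDH, PCK2 and CEBPB lie above the scramble points, in polysomal RNA the groups of PCK2 and CEBPB overlap and those of CHAC1 and PHGDH lie just below scramble, CANX is lower in both, and HYOU1 is at 20.4 to 23.7 CPM in polysomal RNA of both kinds of cell.

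In polysomal RNA CANX was lower and GPT2 higher in knockdown cells, both without overlap, and no member passed the main test. The edgeR test called none of the 42 (0.0123% of all genes, which is 2 genes). DESeq2 called CANX alone, as lower (adjusted p = 0.0404; 2.44% of the 41 members with an adjusted p, against 1.63% of all genes). At an unadjusted p of 0.05 in edgeR, GPT2 was higher (2.38%, against 5.37% of all genes) and CANX and NUPR1 were lower (4.76%, against 7.89%). Groups did not overlap in 6 genes that were higher (14.3%, against 15.5%) and 8 that were lower (19.0%, against 18.5%). Both shares are near those of all genes. Without scramble polysome replicate 1, 11 genes were at an unadjusted p of 0.05, against 3 with all libraries. Without scramble polysome replicate 2 there were 5 and without knockdown polysome replicate 2 there were 6.

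CANX stood at 346 and 470 CPM in scramble and at 266 and 281 CPM in knockdown polysomes, a log2 difference of -0.58 ± 0.18 (SE, n = 2 against 2; edgeR adjusted p = 0.234). Both knockdown values lay below both scramble values, as in total RNA, and the polysome to total ratio of CANX differed between the hairpins by a log2 value of only -0.08 ± 0.25. GPT2, mitochondrial alanine aminotransferase, stood at 42.1 and 40.9 CPM in scramble and at 65.9 and 51.3 CPM in knockdown polysomes. Its log2 difference was 0.50 ± 0.16 (edgeR adjusted p = 0.247), without overlap. In total RNA GPT2 stood at 39.7 and 37.9 against 47.4 and 43.8 CPM. NUPR1 (chr16:28532708-28539174) stood at 19.6 and 7.78 CPM in scramble and at 3.78 and 8.83 CPM in knockdown polysomes, and its groups overlapped. In total RNA NUPR1 stood at 0.768 and 0.747 against 0.597 and 0.758 CPM, also with overlap. HERPUD1 stood at 141 and 111 against 173 and 145 CPM, higher in both knockdown libraries. TRIB3 was also higher in both, at 70.7 and 60.0 against 78.3 and 81.8 CPM. HSP90B1, the ER member of the HSP90 family, was lower in both, at 635 and 896 against 609 and 573 CPM. In total RNA TRIB3 stood at 23.0 and 22.2 against 30.8 and 26.0 CPM, without overlap. HSP90B1 overlapped there, at 815 and 818 against 850 and 733 CPM.

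By role, all 11 chaperones and cochaperones had a log2 difference below 0 in polysomal RNA, as did 8349 of the 16228 genes tested, with a median of -0.12 against -0.01 for all genes. Of the 11, 4 were lower without overlap (36.4%, against 18.5% of all genes), namely CANX, HSP90B1, DNAJB11 and HYOU1. Of the isomerases PDIA3 was lower without overlap, at 400 and 393 against 358 and 307 CPM. The amino acid enzymes had a median of 0.05 and the stress effectors of -0.24. The bZIP factors had a median of 0.18, and CEBPG was higher without overlap at 61.2 and 56.3 against 74.9 and 64.8 CPM. XBP1 was higher without overlap too, at 200 and 186 against 222 and 200 CPM, where the highest scramble value and the lowest knockdown value nearly met. The spread between replicates limits this comparison: the common coefficient of variation between replicates was 0.25 for polysomal and 0.11 for total libraries when each was fitted alone.

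The ratio of polysomal to total RNA, compared between knockdown and scramble by the interaction of hairpin and fraction, measures the change in polysomal RNA relative to that in total RNA. None of the 42 genes was called by edgeR (0% of all genes) or by DESeq2 (0.0246% of all genes). At an unadjusted p of 0.05, none of the 42 had a higher ratio (1.95% of all genes) and 4 had a lower one (9.52%, against 4.33%): CHAC1, PCK2, PHGDH and CEBPB. The count of 4 was 1 without scramble total replicate 1 and 2 without scramble total replicate 2. It was 7 without knockdown total replicate 2 or knockdown polysome replicate 2, 6 without scramble polysome replicate 1 and 9 without scramble polysome replicate 2. The median over the 42 genes was -0.13, against -0.07 over all genes.

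For CHAC1 the ratio differed by a log2 value of -1.15 ± 0.29 (SE; edgeR adjusted p = 0.776). CHAC1 stood at 52.3 and 40.8 CPM in scramble polysomes and at 38.8 and 40.7 CPM in knockdown polysomes, below scramble by a small margin while its total RNA was above. PHGDH stood at 457 and 437 against 429 and 430 CPM in polysomes, with a ratio difference of -0.53 ± 0.20 (edgeR adjusted p = 0.776). CHAC1 and PHGDH were the 2 members that were higher in total and lower in polysomal RNA, both without overlap (4.76%, against 3.24% of all genes). PCK2 stood at 106 and 122 against 103 and 111 CPM in polysomes, with overlap, and its ratio difference was -0.65 ± 0.21 (edgeR adjusted p = 0.776). CEBPB stood at 93.1 and 88.1 against 91.8 and 94.8 CPM in polysomes, with a ratio difference of -0.48 ± 0.21 (edgeR adjusted p = 0.776). DDIT4 and SDF2L1 followed, with ratio differences of -0.49 ± 0.26 and -0.42 ± 0.24. DDIT4 stood at 143 and 108 against 90.8 and 120 CPM and SDF2L1 at 136 and 120 against 116 and 133 CPM in polysomes, so that both overlapped there. Without knockdown total replicate 1 the ratio differences were -1.15 for CHAC1, -0.55 for PCK2, -0.44 for PHGDH, -0.35 for CEBPB and -0.19 for SDF2L1. These values share the total libraries with the comparison of total RNA.

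Between polysomal and total RNA within 1 kind of cell, the stress genes differed strongly. In scramble cells 21 of the 42 were higher in polysomal RNA by edgeR's adjusted p (50.0%, against 29.7% of all genes) and 11 were lower (26.2%, against 33.7%). In knockdown cells 20 were higher (47.6%, against 28.9%) and 11 lower (26.2%, against 34.1%). These values compare a gene's share of the polysomal library with its share of the total library and are not amounts of RNA. TMM scaling sets the median log2 difference of all genes to -0.17 in scramble and -0.16 in knockdown cells. With library totals alone that median was -1.16 and -1.22. There, 12 members were higher and 19 lower in scramble cells, and 8 higher and 22 lower in knockdown cells. Of all genes, 13.2% were then higher and 54.6% lower in scramble cells, and 10.9% and 56.8% in knockdown cells. DDIT4, DNAJB11 and CALR in scramble cells, and DNAJB11, SDF2L1 and CALR in knockdown cells, turned from higher to lower under that scaling.

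The ATF4 arm lay mostly on the polysomal side. All 3 bZIP factors, 7 of 11 amino acid enzymes and 4 of 6 stress effectors were higher in polysomal RNA of scramble cells. Of all genes 29.7% were higher, and of those with a coding sequence of at most 1434 nt 52.0% were. NUPR1, with the largest difference, stood at 0.768 and 0.747 CPM in total and at 19.6 and 7.78 CPM in polysomal RNA of scramble cells. The log2 difference of NUPR1 was 4.17 ± 0.55 (edgeR adjusted p = 5.76e-05), although the polysomal libraries differed by more than 2-fold. CHAC1 came next at 3.54 ± 0.22 (edgeR adjusted p = 8.37e-07), from 3.34 and 4.71 to 52.3 and 40.8 CPM. PCK2 followed at 2.92 ± 0.16 (edgeR adjusted p = 5.00e-07), from 14.8 and 15.2 to 106 and 122 CPM. CTH, which makes cysteine, stood at 3.21 and 3.55 CPM in total and at 13.3 and 12.9 CPM in polysomal RNA of scramble cells, a log2 difference of 1.95 ± 0.27 (edgeR adjusted p = 8.22e-05). In knockdown cells it stood at 3.52 and 3.26 CPM in total and at 14.4 and 9.51 CPM in polysomal RNA. PHGDH had a log2 difference of 1.87 ± 0.15 (edgeR adjusted p = 1.93e-06), and in each of these 5 genes the fractions did not overlap.

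The ER arm was split. MANF, a small secreted ER-resident protein, was the member of the chaperone group with the largest difference toward polysomal RNA. It stood at 83.0 and 84.7 CPM in total and 303 and 316 CPM in polysomal RNA of scramble cells (log2 difference 1.88 ± 0.19, edgeR adjusted p = 7.77e-06). In knockdown cells MANF stood at 110 and 82.1 CPM in total and at 237 and 311 CPM in polysomal RNA. SDF2L1, DNAJB9, DNAJB11 and CALR were higher in polysomal RNA too. CALR stood at 1082 and 1113 CPM in total and at 1500 and 2202 CPM in polysomal RNA of scramble cells. In knockdown polysomal RNA CALR stood at 1544 and 1945 CPM. HYOU1, HSPA5, CANX and DNAJC3 were lower. DNAJC3 turned to higher when the trend with transcript length was removed, at a log2 difference of 0.52 in scramble and 0.43 in knockdown cells (edgeR adjusted p = 0.0133 and 0.0315), and HSPA5 stood at 0.0097 in scramble and -0.24 in knockdown cells.

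HYOU1 (chr11:119044189-119057202) was the member most depleted from polysomal RNA. In scramble cells its level was 226 and 214 CPM in total and 20.8 and 23.7 CPM in polysomal RNA, a log2 difference of -3.31 ± 0.15 (SE, n = 2 against 2; edgeR adjusted p = 4.18e-07). In knockdown cells it stood at 187 and 204 CPM in total and at 20.4 and 20.4 CPM in polysomal RNA, a log2 difference of -3.26 ± 0.15 (edgeR adjusted p = 2.91e-07). The fractions are far apart in both kinds of cell. HSPA5, whose promoter is shown beside that of HYOU1, stood at 778 and 780 CPM in total and at 482 and 498 CPM in polysomal RNA of scramble cells. Of the exon bases of HYOU1, 8.66% are shared with a gene on the opposite strand, and the sources used here do not give the strand setting of the counting. That share was larger for DDIT4 (41.2%), MTHFD2 (33.2%), PDIA6 (25.2%), PDIA3 (18.9%), DNAJB11 (15.3%), EIF2AK3 (15.1%) and CEBPB (11.8%). It was also larger for CALR, EDEM1 and SHMT2, so that the same limit holds for all of these genes.

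Of the 4 degradation genes EDEM1, SEL1L and SYVN1 were lower in polysomal RNA and HERPUD1 was higher. Of all genes, 33.7% were lower and 29.7% higher in scramble cells. EDEM1 stood at 49.6 and 49.7 CPM in total and at 17.0 and 11.8 CPM in polysomal RNA of scramble cells, a log2 difference of -1.78 ± 0.22 (edgeR adjusted p = 3.79e-05). In knockdown cells EDEM1 stood at 45.0 and 49.3 CPM in total and at 17.6 and 12.1 CPM in polysomal RNA. SEL1L stood at 67.8 and 65.5 CPM in total and at 27.8 and 18.2 CPM in polysomal RNA of scramble cells, a log2 difference of -1.53 ± 0.22 (edgeR adjusted p = 0.000107). In knockdown cells SEL1L stood at 47.8 and 64.5 CPM in total and at 22.8 and 20.1 CPM in polysomal RNA. Both degradation genes lay far below their total level, while HERPUD1 was higher in polysomal RNA at 1.41 ± 0.16 (edgeR adjusted p = 2.34e-05). CBS stood at 22.5 and 14.3 CPM in total and at 6.61 and 7.84 CPM in polysomal RNA of scramble cells (log2 difference -1.35 ± 0.35, edgeR adjusted p = 0.00618). ALDH1L2 stood at 10.9 and 8.78 CPM in total and at 4.88 and 4.69 CPM in polysomal RNA (-1.04 ± 0.29, edgeR adjusted p = 0.00926). ERN1 stood at 7.08 and 7.21 CPM in total and at 3.85 and 3.21 CPM in polysomal RNA (-1.02 ± 0.28, edgeR adjusted p = 0.00892). The fractions of these 3 genes did not overlap in scramble cells. In knockdown cells CBS stood at 9.86 and 19.6 CPM in total and at 5.06 and 7.39 CPM in polysomal RNA. ALDH1L2 stood there at 10.2 and 16.4 against 4.46 and 5.69 CPM. ERN1 stood there at 4.74 and 5.64 against 3.65 and 4.08 CPM, and was not called (edgeR adjusted p = 0.214). The calls of CBS, ALDH1L2 and ERN1 were lost without scramble total replicate 1, and that of ERN1 also without scramble total replicate 2. Those of DDIT4, CALR and EIF2AK3 in scramble cells were lost when either of these libraries was left out. The calls of DDIT4 and EIF2AK3 were also lost without scramble polysome replicate 1, and that of CALR without scramble polysome replicate 2. Of the other sensor genes in scramble cells, XBP1 was higher in polysomal RNA at 1.11 ± 0.15 (edgeR adjusted p = 5.48e-05) and EIF2AK3 lower at -0.66 ± 0.26 (edgeR adjusted p = 0.0444). ATF6 was not called, at 0.05 ± 0.18 (edgeR adjusted p = 0.803).

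**Figure D4:**
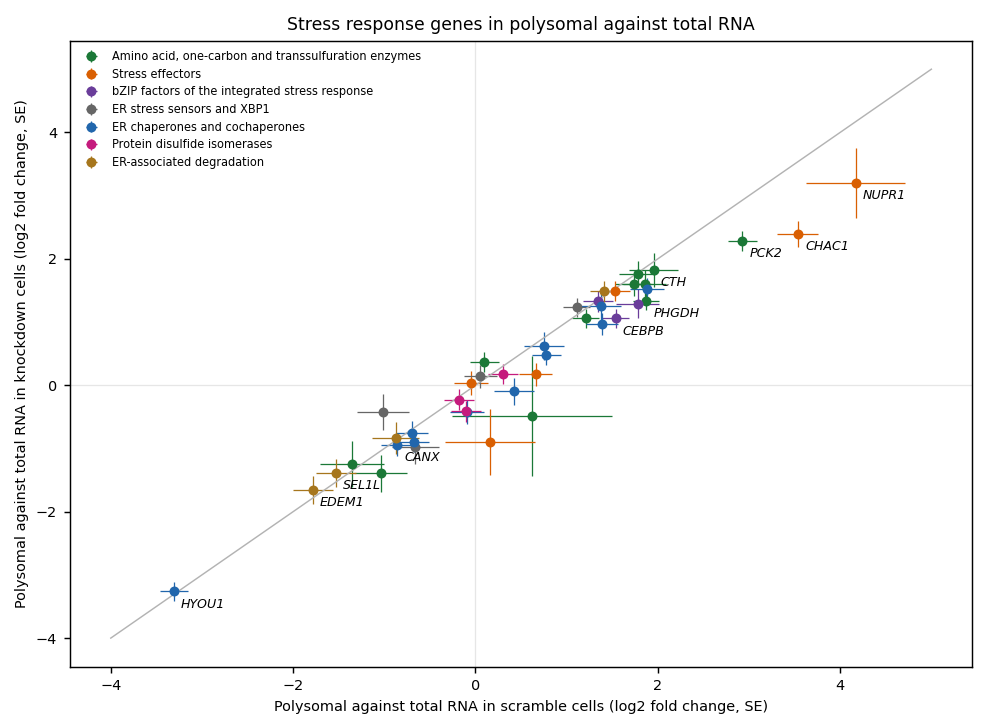
Log2 fold change of polysomal against total RNA of the 42 genes in scramble cells (x axis) and knockdown cells (y axis), coloured by role, with standard errors as bars and equality as the grey line. NUPR1, CHAC1 and PCK2 lie far to the right and somewhat below the line, and HYOU1 lies alone at about -3.3 on both axes.

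The position of the members went with the length of their coding sequence. Spearman's rho between coding length and the log2 difference of polysomal against total RNA in scramble cells was -0.73 over the 42 genes and -0.61 over 12888 coding genes. These correlations are across genes that share the same libraries. Of the 19 members with a coding sequence of at most 1434 nt, the median of all genes, 18 were higher in polysomal RNA (94.7%, against 52.0% of all such genes) and none was lower. Of the 23 longer ones 3 were higher and 11 lower (47.8%, against 56.4%). The 3 longer members that were higher were SHMT2, PHGDH and PCK2, with coding lengths of 1512, 1599 and 1920 nt. HYOU1, at 2997 nt, lay below the quartiles of genes of like length. NUPR1, at 300 nt, and CHAC1, at 792 nt, lay above them. When the trend with transcript length was removed from each library, log2 differences in scramble cells were 2.47 for CHAC1, 2.62 for PCK2, 1.76 for PHGDH and -2.39 for HYOU1. The call of MANF in scramble cells held at 0.37, and SDF2L1 turned from 1.39 to -0.45. The calls of SEL1L, ALDH1L2, ERN1, HSPA5, XBP1, CALR, CANX, DDIT4 and EIF2AK3 were lost there. GPT2, VLDLR, ATF6, CRELD2, PDIA3 and PDIA4 were called there in scramble cells but not in the main fit. In knockdown cells, calls lost under that setting included those of MANF, NUPR1, JDP2 and EDEM1. Newly called in knockdown cells were GPT2, DDIT4, SESN2, ERN1, ATF6, CRELD2 and PDIA4.

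**Figure D5:**
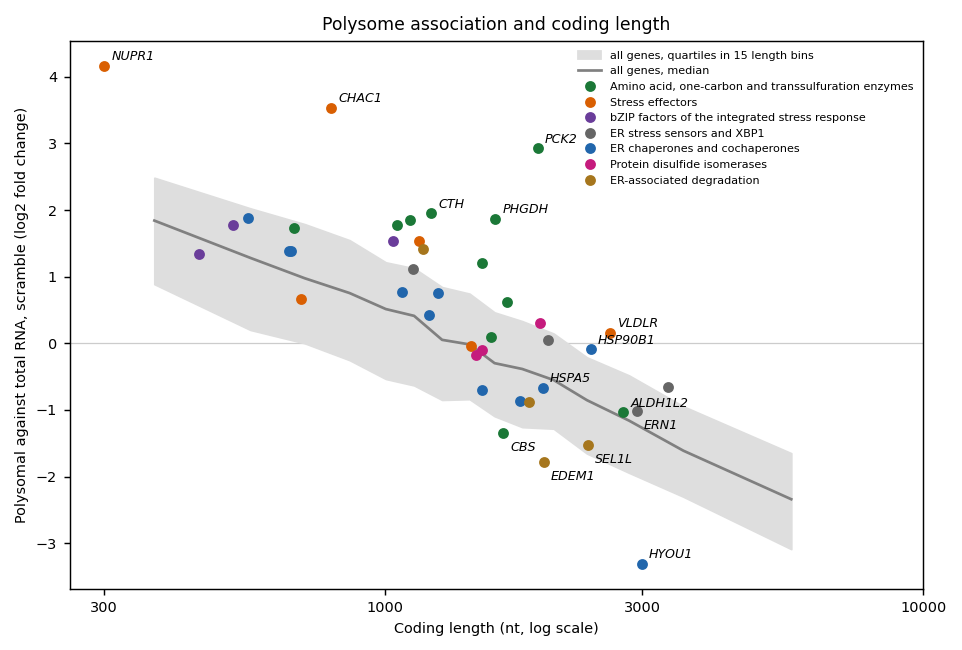
Log2 fold change of polysomal against total RNA in scramble cells (y axis) against coding length in nt (log x axis) for the 42 genes, coloured by role, over the median and quartiles of all coding genes in 15 length bins (grey). PCK2, CHAC1 and NUPR1 lie above the grey band and HYOU1 below it.

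Other genes of the pathway, a list of 75 of which 74 were tested, were read in the same fits. None was called by edgeR in the 3 knockdown comparisons. In total RNA 7 of 74 were higher at an unadjusted p of 0.05 (9.46%, against 2.66% of all genes), namely ATF4, CREB3, SLC3A2, SLC6A9, SLC7A11, SLC7A5 and VEGFA, and EIF2S2 was lower. ATF4 stood at 214 and 221 CPM in scramble and at 339 and 270 CPM in knockdown total RNA, and its log2 difference was 0.49 ± 0.17 (edgeR adjusted p = 1). SLC7A11, the cystine transporter, stood at 4.41 and 3.85 CPM in scramble and at 9.99 and 10.3 CPM in knockdown total RNA, a log2 difference of 1.29 ± 0.31 (edgeR adjusted p = 0.775). VEGFA, a secreted growth factor, stood at 51.5 and 54.3 against 90.8 and 105 CPM, and was the only gene of the list called in total RNA by DESeq2 (adjusted p = 0.00273; edgeR adjusted p = 0.41). Groups did not overlap in any of these 3.

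The transcription factor DDIT3 (CHOP), a late product of the response, overlapped at 6.91 and 5.27 against 5.97 and 4.71 CPM in total RNA. Of the 16 amino acid transporters and tRNA synthetases linked to ATF4, 11 had a log2 difference above 0 in total RNA (68.8%, against 52.8% of all genes). The polysome to total ratio had a log2 difference below 0 in 15 of the 16 and in 9075 of the 16228 genes tested (median -0.32, against -0.07 over all genes). SLC7A11, SLC3A2, SLC7A5 and SLC7A1 were the ones at an unadjusted p of 0.05 for that ratio. The ratio difference of SLC7A11 was -1.03 ± 0.44 (edgeR adjusted p = 0.776). ATF4 itself had a ratio difference of -0.07 ± 0.24. Its log2 difference of polysomal against total RNA in scramble cells was 2.20 ± 0.17 (edgeR adjusted p = 2.09e-06). Of the 27 translocation, folding and degradation genes linked to XBP1 and ATF6, none was at an unadjusted p of 0.05 in total RNA, and PREB was called higher in polysomal RNA by DESeq2 (adjusted p = 0.00981; edgeR adjusted p = 0.172).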

How the data were processed

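The deposited table holds raw read counts per gene symbol in 8 libraries. Per the submitters' processing notes, bcl2fastq 2.19.0, Trimmomatic 0.36, HISAT2 2.1.0, featureCounts of Subread 2.0.1, DESeq2 and R 4.1.2 were used with GRCh38. The annotation, strand setting and treatment of multiply mapped reads are not given in the sources used here, nor is how polysomes were isolated. Library totals ranged from 18043714 to 24590030 counts.

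From these counts, genes were filtered with edgeR 4.0.16 (filterByExpr over 4 groups), scaled by TMM and fitted with its robust quasi-likelihood test over all 8 libraries in R 4.3.3, with Benjamini-Hochberg adjustment over all 16228 tested genes and a threshold of 0.05. CPM uses TMM-scaled library sizes. Log2 CPM values use a prior count of 2, and fold changes are those of the fitted test with its default prior count. An unadjusted p is from the same test before adjustment. DESeq2 1.42.0, other scalings and filters, a replicate block, a removed length trend and leaving out each library were alternatives. The edgeR script was tested on simulated data with known changes. Gene lengths and coordinates came from GENCODE v29 (GRCh38), which matched all 42 members, and promoters from RefSeq.

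Values in every library are given for the members with the 6 smallest p-values in each of the 3 knockdown comparisons, the 6 highest and 6 lowest differences of polysomal against total RNA in scramble cells, and the highest member of each role. Other values were chosen after they were seen. The members and lists were chosen with earlier results of these data known. With 2 libraries a group, p-values and SEs of the main fit rest on a spread estimated over all 8 libraries, total and polysomal together. The common coefficient of variation was 0.18 in that fit, against 0.11 for total and 0.25 for polysomal libraries fitted alone. The main fit thus does not use the smaller spread of the total libraries or the larger one of the polysomal libraries. Counts of genes whose groups do not overlap are descriptions, not tests. In total RNA they rest on scramble libraries that lay close to each other, so that small shifts are enough. RefSeq protein sequences were not used here.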

Additional observations from a re-analysis of the deposited data

How the results depend on the processing

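No member was called in total RNA or for the change of the ratio under any alternative run. In polysomal RNA the count of called members went from 0 to 1 with DESeq2 (CANX) and to 2 with no filter on low counts (CANX, adjusted p = 0.0338, and NUPR1, adjusted p = 0.0383). Leaving out 1 library at a time gave 0 to 0 called members in each knockdown comparison, and 26 to 32 in polysomal against total RNA of scramble and of knockdown cells, against 32 and 31 with all libraries. The differences between replicates 1 and 2 correlated at -0.092 to 0.026 across genes between groups, which does not settle whether same-numbered libraries are paired. With the replicate block the counts of called members were 0, 0, 0, 32 and 30. With the length trend removed, 23 members were higher and 6 lower in polysomal RNA of scramble cells, and 20 and 5 in knockdown cells. Of all genes, 29.3% were then higher and 25.8% lower in scramble cells, and 30% and 26.9% in knockdown cells. The sign turned for 8 called members in scramble cells (ALDH1L2, DDIT4, ERN1, EIF2AK3, HSPA5, DNAJC3, SDF2L1 and SEL1L) and for 5 in knockdown cells (ALDH1L2, DNAJC3, SDF2L1, PDIA3 and SEL1L). SEL1L went to 0.0082 in scramble and 0.13 in knockdown cells and ALDH1L2 to 0.48 and 0.096. ERN1, which the main fit did not call in knockdown cells, went to 0.53 and 1.07. With only the libraries compared, 13 members in total RNA were at an unadjusted p of 0.05, against 7. The causes were not tested. The depth of ASNS, at most 22 counts in a library, limits what can be seen of it.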
